A study of Mus musculus with 9 samples.

Results

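Transcript levels of 31 genes for the enzymes of glycolysis and for lactate transport were compared between white gastrocnemius muscle of Gaa knock-out mice, which lack the lysosomal enzyme acid alpha-glucosidase, and of wild-type animals. The genes were chosen by symbol for their place in the pathway, and all 31 were found among the 18062 symbols of the deposited table. Of them, 27 had a mean of at least 0.5 RPKM (reads per kilobase of transcript, scaled to the mapped reads of the library) over the 9 libraries and were tested, together with all 11032 genes that passed this limit. The 5 knock-out libraries came from Gaa knock-out mice at 5 months of age. The 4 wild-type libraries came from mice at 5 months (2 libraries) and at 6 months (2 libraries). The table names the wild-type libraries wt1 to wt4 without an age, so both ages form 1 arm, and an effect of age cannot be told apart. Exon 6 of Gaa was disrupted in the knock-out, with loxP sites in introns 5 and 6, in a colony of mixed BL6/129j background kept by sibling matings, and all mice were described as of mixed background. The promoter or cell type of any Cre, and whether the wild-type mice were littermates, were not stated. Whether each library is a separate mouse was not stated either, and p-values cover only the spread among libraries.

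Glycolysis splits glucose 6-phosphate into pyruvate and yields ATP and NADH without oxygen. In white, fast-twitch muscle it is the main source of ATP for short efforts, and lactate dehydrogenase returns the NADH to NAD by making lactate, which leaves the fibre through monocarboxylate transporters. Many steps have a muscle isoenzyme beside isoenzymes that other tissues use. Acid alpha-glucosidase frees glucose from glycogen inside lysosomes, which is a separate route from the cytosolic breakdown of glycogen that feeds glycolysis.

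The libraries had the Gaa levels that their labels call for, 3.11 to 3.64 RPKM in knock-out muscle and 46.0 to 56.0 in the wild type (log2 fold change -3.80, adjusted p = 1.77e-11). Depth was estimated from the spacing of low values: each RPKM of a 1-kilobase transcript was worth 17.7 (ko3) to 37.6 reads in knock-out libraries and 37.2 to 64.3 in wild-type ones. The 15 fast-twitch fibre genes summed to 117250.0 to 133063 RPKM per knock-out library and 112585 to 120830.0 per wild-type library, far above the 11 slow-twitch genes (1199.6 to 1457 and 845 to 1213). The wild-type libraries formed pairs: the chi-square per gene was 4.49 between wt1 and wt2, 4.05 between wt3 and wt4, and 13.7 to 15.5 across the pairs. As deposited, the median log2 fold change of all tested genes, knock-out over wild type, was 0.12. Values are therefore also given after each library was centred on its median log ratio, which took this shift to -0.00.

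As deposited, 15 of the 27 tested members were higher in the knock-out (55.6%, against 37.0% of all tested genes), 3 were lower (11.1%, against 14.8%) and 9 did not pass the test (limma, adjusted p below 0.05). After centring, 8 were higher (29.6%, against 25.1% of all genes) and 7 lower (25.9%, against 24.9%), so both counts then stood near those of all genes. The median member was 0.22 higher as deposited, against 0.12 for all tested genes, and 0.10 higher after centring. Gapdh, Eno1, Ldhb, Ldhd, Gpd1l and Adpgk rose, and Gpd1, Gpd2 and Pfkfb1 fell, in all 4 scalings tried: as deposited, centred, quantile normalized, and with the trend of each library with transcript length removed. The other calls depended on the scaling: 7 of the rises did not pass after centring, and Pfkm, Pfkl, Pfkfb3 and Slc16a3 passed as falls in the 3 other scalings but not as deposited. With quantile normalization 7 were higher (24.0% of all genes) and 8 lower (27.7%), and with the length trend removed 8 were higher (22.4%) and 8 lower (26.6%). No member passed as higher in 1 scaling and as lower in another. The 5 knock-out values lay all above the 4 wild-type values for 12 of the 27 members (30.9% of all tested genes did) and all below for 2 (11.4%). Against wt1 and wt2 alone 14 members were higher and 3 lower, and against wt3 and wt4 alone 10 and 3. The shares of all genes in these fits are not given, so the counts cannot be set against them. Aldoa, Tpi1, Pgam1, Eno3 and Pfkfb4 did not pass against wt3 and wt4 alone (adjusted p from 0.128 to 0.218), and Gpd1 and Slc16a1 did not against wt1 and wt2 alone.

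**Figure D1:**
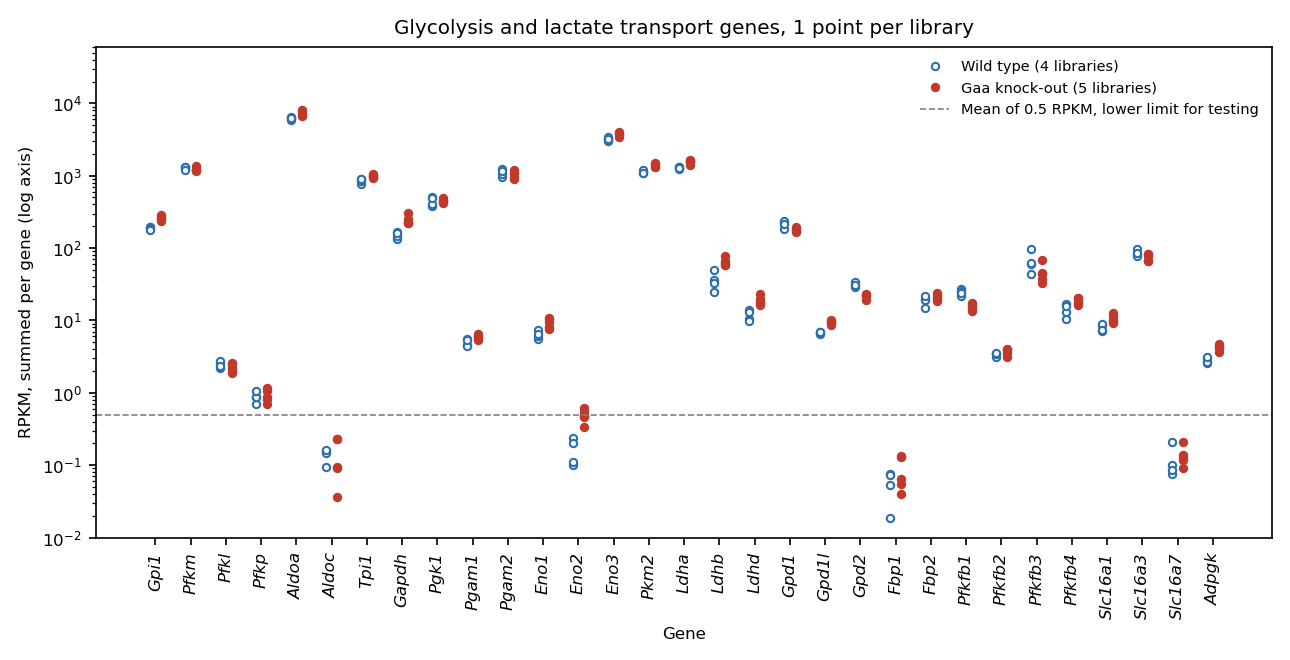
RPKM of the 31 genes in each library, on a log axis, with wild type as open and Gaa knock-out as filled points and the lower limit for testing as a dashed line. Levels span from 0.0184 RPKM (Fbp1 in wt2) to 7989.8 RPKM (Aldoa in ko2), while the genotypes lie close together for most genes.

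**Figure D2:**
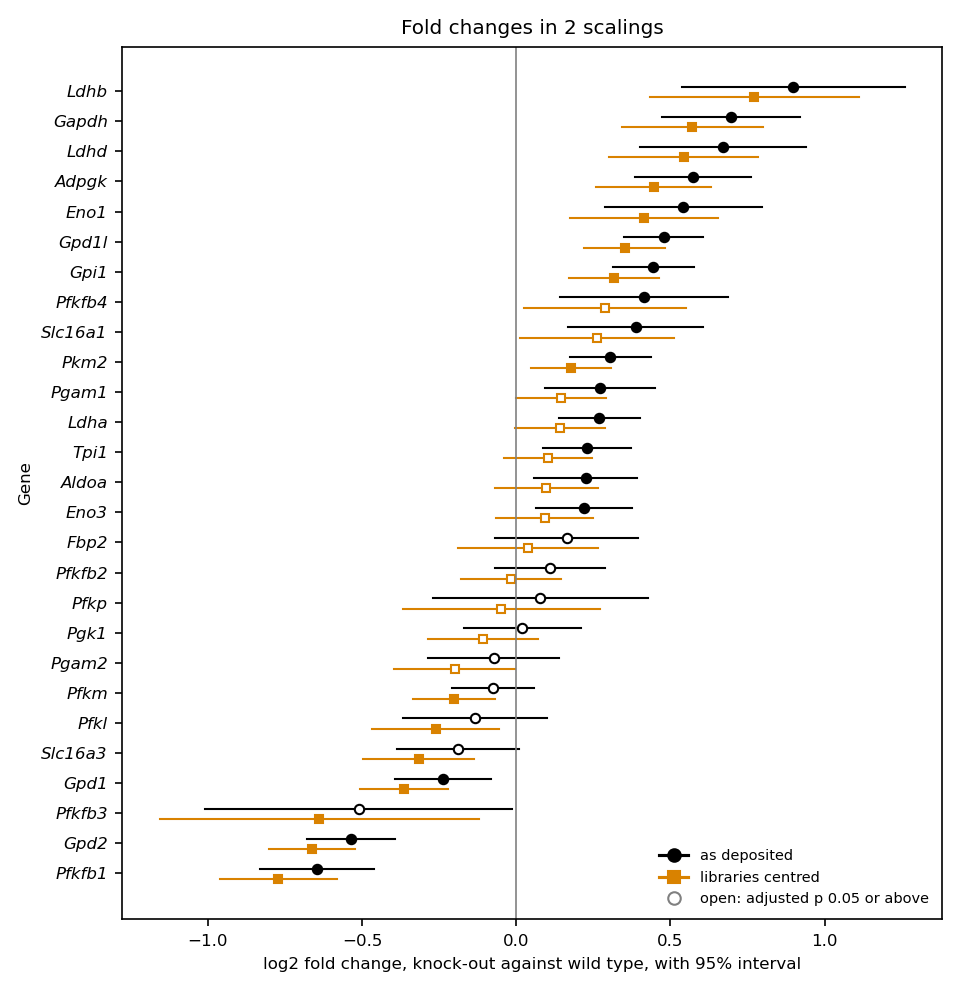
Log2 fold change of each of the 27 tested genes with its 95% interval, as deposited (circles) and with the libraries centred (squares), where filled symbols have an adjusted p below 0.05. Ldhb is at the top at 0.90 as deposited and 0.77 centred, and Pfkfb1 at the bottom at -0.64 and -0.77.

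The enzymes of the chain from glucose 6-phosphate to pyruvate were among the most abundant transcripts of the muscle. Aldoa, which encodes muscle aldolase, ranked 11th of 18062 symbols by mean RPKM, Eno3 (muscle enolase) 13th, Ldha 22nd, Pkm2 (pyruvate kinase) 23rd and Pfkm (muscle phosphofructokinase) 24th. The 31 members together held 4.99% to 5.37% of the summed RPKM of a knock-out library and 4.82% to 5.33% of a wild-type library, so these shares overlapped. Their summed RPKM was 18753 ± 1131 (SD, n = 5) in knock-out muscle and 16458 ± 701 (SD, n = 4) in the wild type, beside RPKM totals of 349239 to 374056 and 315337 to 327517. A single isoenzyme held nearly all RPKM of each step that has several: Pfkm held 99.7% of phosphofructokinase, Pgam2 99.5% of phosphoglycerate mutase, Eno3 99.8% of enolase and Ldha 96.5% of L-lactate dehydrogenase. By summed RPKM per step, aldolase was highest (7336 in knock-out muscle and 6268 in the wild type), and Gapdh (247 and 152) and Gpi1 (258 and 190) were the lowest pair. The levels of this pair are uncertain, since 82.5% and 25.3% of their 50-base windows also occur in other genes and the treatment of such reads was not stated.

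Gpi1, the isomerase that makes fructose 6-phosphate, was at 267, 285, 249, 239 and 251 RPKM in ko1 to ko5 and at 195, 194, 192 and 178 in wt1 to wt4. All knock-out libraries lay above the wild type, and the rise was 1.36-fold (log2 fold change 0.44, SE 0.06, adjusted p = 8.74e-05, and 0.32 centred). It missed the threshold with quantile normalization (0.13, adjusted p = 0.0525). Phosphofructokinase, the committed step, did not pass as deposited. Pfkm was at 1180.2, 1342.8, 1186.1, 1194.8 and 1177.7 RPKM in ko1 to ko5 and at 1259.8, 1314.2, 1330.4 and 1217.1 in wt1 to wt4. The groups overlapped through ko2, whose value was the highest of all 9 (log2 fold change -0.08, 95% interval -0.21 to 0.06, adjusted p = 0.319). After centring Pfkm was past the threshold as lower (-0.20, adjusted p = 0.0168). The liver form Pfkl was at 1.88 to 2.57 RPKM in knock-out muscle and 2.21 to 2.77 in the wild type, and the platelet form Pfkp at 0.695 to 1.17 and 0.692 to 1.05, with neither past the threshold as deposited.

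The Pfkm value is the sum of 3 transcript lines, and they did not move alike. NM_021514 fell from 826 ± 38.4 (SD, n = 4) to 732 ± 42.4 RPKM (SD, n = 5; log2 fold change -0.18, adjusted p = 0.032), while NM_001163488 rose from 229 ± 4.05 to 265 ± 23.8 (0.21, adjusted p = 0.0253). NM_001163488 held 20.2% to 24.6% of Pfkm RPKM in the knock-out libraries and 17.1% to 19.3% in the wild type, with no overlap. The third, NM_001163487, was at 219 and 225 RPKM. After centring, the fall of NM_021514 passed (-0.30, adjusted p = 0.00165) and NM_001163488 did not (0.08, adjusted p = 0.384). Reads common to these overlapping transcripts had to be divided among them, and how this was done was not stated. For reference, 31% of all tested lines passed as higher and 12.2% as lower as deposited, and 21.2% and 20.7% centred.

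**Figure D3:**
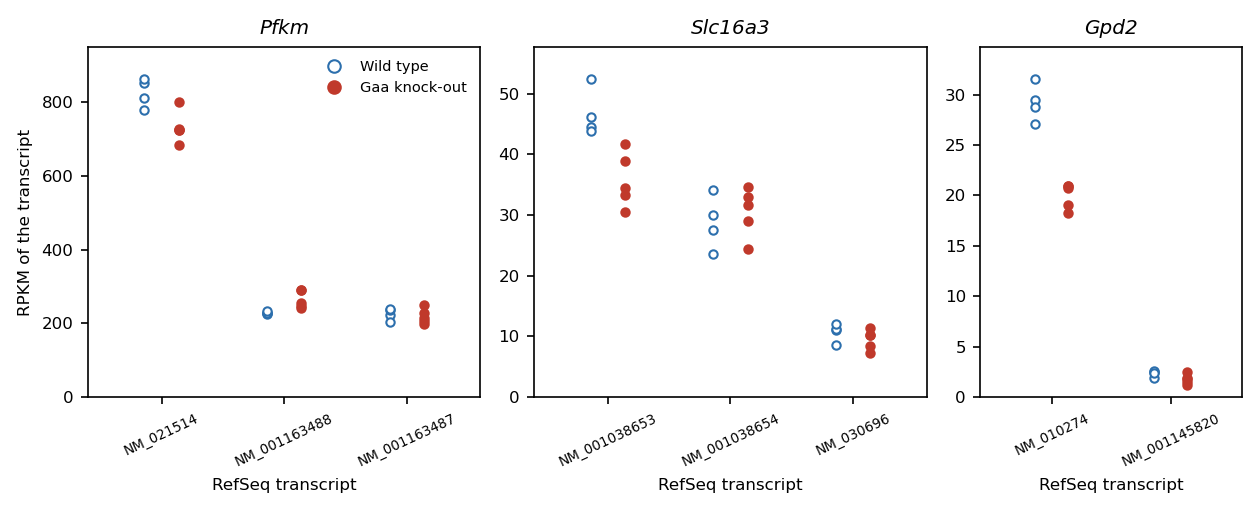
RPKM of each RefSeq transcript of Pfkm, Slc16a3 and Gpd2 in each library, with wild type as open and Gaa knock-out as filled points. The knock-out points of NM_001038653 (Slc16a3) and NM_010274 (Gpd2) lie below all wild-type points, and those of NM_001163488 (Pfkm) above.

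Aldoa was at 7827.6, 7989.8, 6706.7, 7152.4 and 7003.4 RPKM in ko1 to ko5 and at 6257.3, 5958.3, 6546.1 and 6310.3 in wt1 to wt4. The groups did not overlap, and the rise was small (1.17-fold, log2 fold change 0.22, SE 0.08, adjusted p = 0.0273). It did not pass after centring (0.10, adjusted p = 0.308), turned to -0.02 with the length trend removed, and passed with quantile normalization (0.28, adjusted p = 7.93e-05). As deposited it lost the threshold without any 1 of ko1, ko2, wt1, wt2 or wt4 (adjusted p up to 0.0811). Tpi1, the triose phosphate isomerase, rose from 849.6 ± 60.8 (SD, n = 4) to 995 ± 49.9 RPKM (SD, n = 5; 0.23, adjusted p = 0.0112, but 0.10 centred and -0.0035 with the length trend removed). The brain aldolase Aldoc was at 0.0362 to 0.232 RPKM, which is an estimated 1.98 to 15.9 reads, and was not tested.

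Gapdh, which makes the NADH of glycolysis and is often used as a reference gene, was at 306, 252, 220.1, 224 and 232 RPKM in ko1 to ko5 and at 132, 145, 167 and 163 in wt1 to wt4. Every knock-out library lay above every wild-type library (1.62-fold, log2 fold change 0.70, SE 0.10, adjusted p = 1.55e-04), with 0.57 centred, 0.40 quantile normalized and 0.45 with the length trend removed. Gapdh has many processed copies in the mouse genome: 82.5% of the 50-base windows of its transcript also occur in transcripts of other annotated genes, 215 of them pseudogenes. The share was 72.2% for Eno1, 68.0% for Pgk1, 41.5% for Pgam1, 34.4% for Pkm2, 27.0% for Ldhb and 25.3% for Gpi1, against 0.0% for Pfkm, Pgam2 and Eno3. The treatment of reads that match several places was not stated, so the levels and changes of these genes are uncertain in proportion, those of Gapdh, Eno1 and Pgk1 most.

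The start region of Gapdh is shown with those of 4 other members, in the places where these are described, as the pair of L-lactate dehydrogenases and the largest rises and falls that passed both as deposited and centred. Each window runs from 250 bases before to 50 bases after the annotated start, 5′ to 3′ on the gene's strand, from RefSeq on GRCm38.p6. Capitals mark ACGTG, a form of the core letters that hypoxia-inducible factors bind, read on both strands (ACGTG or CACGT). The E-box CACGTG contains ACGTG on both strands and so counts as a match on each. Other forms of the core, such as GCGTG, were not searched, so a window without a match can still hold them. The Gapdh window is chr6:125165724-125166023, minus strand, with 1 match.
Gapdh: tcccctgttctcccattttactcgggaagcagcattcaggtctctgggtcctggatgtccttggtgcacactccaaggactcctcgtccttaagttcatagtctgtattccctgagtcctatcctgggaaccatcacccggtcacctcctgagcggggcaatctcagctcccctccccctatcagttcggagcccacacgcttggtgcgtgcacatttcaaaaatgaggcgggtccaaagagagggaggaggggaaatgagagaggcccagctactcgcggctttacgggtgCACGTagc

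A window could be assigned to 25 of the 31 members, as the nearest within 100 bases of the start of the most abundant transcript line. The windows they are set against were not chosen in this way, since every window of a gene was counted. ACGTG was found in 14 of these (56.0%), against 25.8% of the 10131 windows of tested genes and 19.6% of all 32851 windows. CACGTG was found in 8 (32.0%), against 10.3% and 7.2%. By call as deposited, ACGTG was in 7 of 11 windows of members that rose, 1 of 2 that fell, 6 of 9 that did not pass and 0 of 3 that were not tested. A match is a description of these letters, not of a bound site.

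Pgk1, the phosphoglycerate kinase that makes the first ATP of the payoff steps, was at 459, 420.5, 451, 494 and 429 RPKM in ko1 to ko5 and at 387, 406, 507 and 489 in wt1 to wt4. The groups overlapped (log2 fold change 0.02, 95% interval -0.17 to 0.21, adjusted p = 0.864). Pgam2, the muscle phosphoglycerate mutase, was at 1104.9, 1183.5, 902, 1093 and 951 RPKM in ko1 to ko5 and at 961, 1041.9, 1236.7 and 1163.5 in wt1 to wt4. These overlapped too (-0.07, 95% interval -0.29 to 0.14, adjusted p = 0.552), although with the length trend removed Pgam2 passed as lower (-0.40, adjusted p = 9.53e-04), and with quantile normalization as well (-0.28, adjusted p = 0.0092). The widely expressed Pgam1 was at 5.39 to 6.57 RPKM in knock-out muscle and 4.49 to 5.46 in the wild type (0.27, adjusted p = 0.0161, and 0.14 centred, adjusted p = 0.0929). Without wt1 or wt2 this rise did not pass either, with adjusted p up to 0.0523.

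Of the enolases, Eno3 was at 3951, 3944, 3622, 3798 and 3439 RPKM in ko1 to ko5 and at 2967, 3254, 3442 and 3224 in wt1 to wt4. The lowest knock-out library, ko5, lay just under wt3, and the rise was 1.16-fold (log2 fold change 0.22, SE 0.07, adjusted p = 0.0217, but 0.09 centred, 0.00 quantile normalized and -0.02 with the length trend removed). Without wt1 it did not pass (adjusted p up to 0.0706). The widely expressed Eno1 rose from 6.35 ± 0.763 (SD, n = 4) to 9.34 ± 1.47 RPKM (SD, n = 5; 0.54, SE 0.12, adjusted p = 0.00234, and 0.41 centred). The neuronal Eno2 was too low to be tested: it was at 0.457, 0.622, 0.471, 0.544 and 0.340 RPKM in ko1 to ko5 and at 0.102, 0.110, 0.235 and 0.199 in wt1 to wt4. All knock-out values were higher, from an estimated 23.3 to 62.2 reads against 10.6 to 42.3, and a fit without the lower limit on RPKM gave a log2 fold change of 1.18 (SE 0.20, adjusted p = 0.00178).

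Pkm2, the table's older symbol for the muscle pyruvate kinase gene Pkm, was at 1414, 1477, 1318, 1442 and 1305 RPKM in ko1 to ko5 and at 1098, 1110.4, 1192 and 1102 in wt1 to wt4. The groups did not overlap, and the rise was 1.24-fold (log2 fold change 0.30, SE 0.06, adjusted p = 0.00124, and 0.18 centred, adjusted p = 0.0272). It was 0.04 with quantile normalization (adjusted p = 0.555) and 0.13 with the length trend removed (adjusted p = 0.0507). The table has 1 line for this gene, so the M1 and M2 splice forms cannot be told apart. Adpgk, a glucokinase that uses ADP, rose from 2.81 ± 0.230 (SD, n = 4) to 4.24 ± 0.397 RPKM (SD, n = 5; 0.57, adjusted p = 1.81e-04, and 0.45 centred).

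At the lactate step, Ldhb rose more than Ldha. Ldha encodes the muscle subunit, which favours lactate formation, and Ldhb the heart subunit, found in oxidative fibres and suited to lactate use. Ldha was at 1644, 1586, 1522, 1594.5 and 1407 RPKM in ko1 to ko5 and at 1248, 1305, 1307 and 1279 in wt1 to wt4. It rose 1.21-fold as deposited with no overlap (log2 fold change 0.27, SE 0.06, adjusted p = 0.00278), but was at 0.14 after centring (adjusted p = 0.0956), at -0.04 with quantile normalization and at 0.04 with the length trend removed. Ldhb was at 63.0, 67.2, 59.0, 58.3 and 78.0 RPKM in ko1 to ko5 and at 36.4, 24.4, 49.8 and 32.6 in wt1 to wt4. All knock-out libraries lay above the wild type, and the rise was 1.86-fold (0.90, SE 0.16, adjusted p = 7.93e-04), with 0.64 to 0.77 in the other scalings. The Ldha window is chr7:46845554-46845853, plus strand, with 5 matches, and the Ldhb window is chr6:142507908-142508207, minus strand, with none.
Ldha: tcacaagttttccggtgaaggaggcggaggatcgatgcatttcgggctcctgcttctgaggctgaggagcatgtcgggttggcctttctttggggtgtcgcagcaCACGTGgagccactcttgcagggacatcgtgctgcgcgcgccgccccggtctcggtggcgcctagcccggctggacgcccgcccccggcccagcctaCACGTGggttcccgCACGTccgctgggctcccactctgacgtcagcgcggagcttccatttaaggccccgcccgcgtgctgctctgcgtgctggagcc
Ldhb: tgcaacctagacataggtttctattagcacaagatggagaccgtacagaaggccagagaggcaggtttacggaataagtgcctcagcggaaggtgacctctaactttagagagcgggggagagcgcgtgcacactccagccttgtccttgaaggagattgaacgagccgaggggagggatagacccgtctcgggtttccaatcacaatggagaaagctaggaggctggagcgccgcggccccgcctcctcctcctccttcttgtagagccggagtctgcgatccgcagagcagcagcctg

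Ldhb as a percentage of Ldha was 3.83, 4.24, 3.87, 3.65 and 5.54 in ko1 to ko5 and 2.92, 1.87, 3.81 and 2.55 in wt1 to wt4. The ratio was higher in the knock-out by 0.63 on the log2 scale (exact two-sided permutation p = 0.0159, adjusted p = 0.0381 over 12 isoenzyme ratios), with wt3 above ko4. Slow-twitch fibre genes moved with Ldhb: 10 of 11 rose and none fell as deposited (90.9% higher, against 37.0% of all tested genes). After centring 9 rose and none fell (81.8% higher, against 25.1%). Mb was at 926 RPKM against 869 (adjusted p = 0.406). Mb, the gene that did not pass as deposited, made up 62.8% to 90.7% of the summed RPKM, so the other 10 genes were also summed without it. They came to 233, 526, 378, 304 and 524 RPKM in ko1 to ko5 and to 237, 113, 199.7 and 78.9 in wt1 to wt4. All knock-out libraries but ko1 lay above the wild type, and wt2 and wt4 had the lowest sums and the lowest Ldhb. The sum of ko1 lay between those of wt1 and wt3, while its Ldhb was at 63.0 RPKM against 36.4 and 49.8. Of the 15 fast-twitch genes 4 rose and 2 fell as deposited (26.7% and 13.3%, against 37.0% and 14.8% of all genes). After centring 1 rose and 3 fell (6.7% and 20%, against 25.1% and 24.9%). The 1 that rose after centring was the myosin gene Myh2 (log2 fold change 1.12 centred, and 1.25 as deposited, adjusted p = 3.68e-04 by limma as deposited). It was at 308 to 471 RPKM in knock-out muscle, with ko1 at 313, and at 92.2 to 200 in the wild type. Whether the slow-fibre or the Myh2 difference accounts for that of Ldhb was not tested. In these bulk samples, more fibres of a type and more RNA per fibre cannot be told apart.

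**Figure D4:**
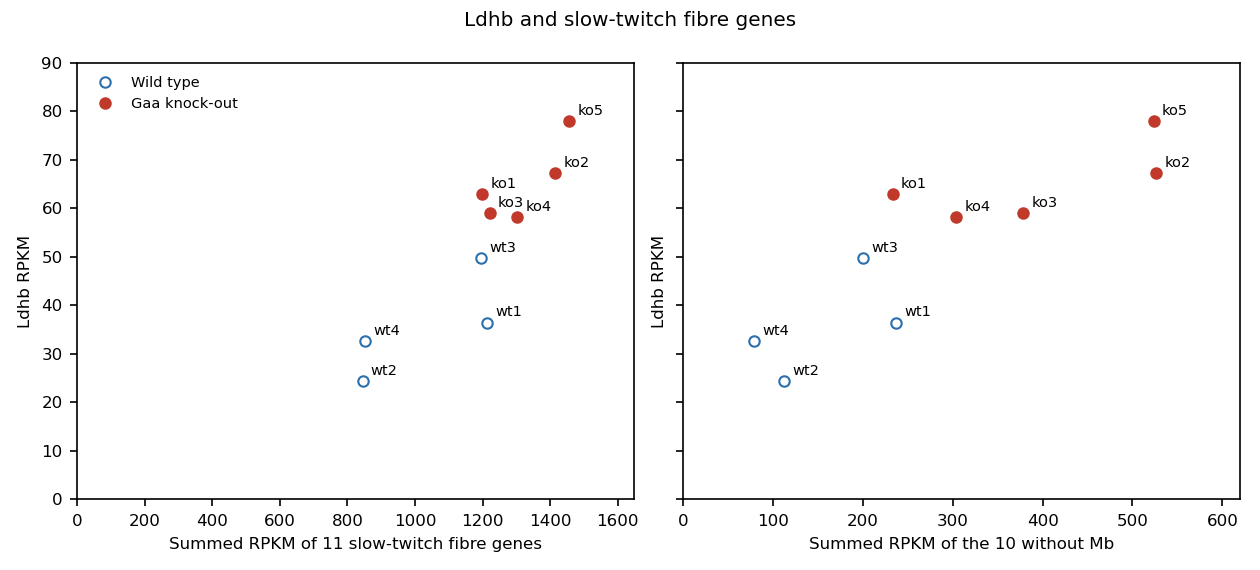
Ldhb RPKM against the summed RPKM of 11 slow-twitch fibre genes (left) and of the 10 without Mb (right), 1 point per library, with wild type as open and Gaa knock-out as filled points. The 5 knock-out libraries lie above 58 RPKM of Ldhb and the 4 wild-type libraries below 50, while on the right ko1 (233 RPKM) lies between wt3 and wt1 and the 4 other knock-out libraries lie above all wild-type sums.

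Ldhd, the mitochondrial enzyme that oxidizes D-lactate, was at 17.8, 19.7, 17.2, 23.1 and 16.1 RPKM in ko1 to ko5 and at 10.3, 9.88, 14.0 and 13.0 in wt1 to wt4. It rose without overlap (1.59-fold, log2 fold change 0.67, SE 0.12, adjusted p = 8.13e-04, and 0.54 centred). Of the monocarboxylate transporters, Slc16a3 (MCT4), the exporter of glycolytic fibres, was the most abundant, at 78.8, 83.6, 66.7, 83.7 and 66.1 RPKM in ko1 to ko5 and 83.2, 78.2, 97.8 and 85.9 in wt1 to wt4. The groups overlapped, and it did not pass as deposited (-0.19, 95% interval -0.39 to 0.01, adjusted p = 0.0993), while after centring it passed as lower (-0.32, adjusted p = 0.00776). Of its 3 transcript lines, NM_001038653 fell from 46.8 ± 3.90 (SD, n = 4) to 35.8 ± 4.495 RPKM (SD, n = 5; -0.39, adjusted p = 0.00615), and NM_001038654 was at 28.8 and 30.5 RPKM (0.09, adjusted p = 0.596).

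Slc16a1 (MCT1), the form of oxidative fibres and of many other cells, was at 10.3, 9.09, 11.1, 12.6 and 9.86 RPKM in ko1 to ko5 and at 8.74, 8.95, 7.16 and 7.36 in wt1 to wt4. It rose without overlap (1.31-fold, log2 fold change 0.39, SE 0.10, adjusted p = 0.00682), but not past the threshold after centring (0.26, adjusted p = 0.0758) or against wt1 and wt2 alone (adjusted p = 0.0852). As a percentage of Slc16a3, Slc16a1 was 13.0, 10.9, 16.7, 15.0 and 14.9 in ko1 to ko5 and 10.5, 11.4, 7.32 and 8.56 in wt1 to wt4, which is higher in the knock-out by 0.58 on the log2 scale with ko2 inside the wild-type range (exact two-sided permutation p = 0.0238, adjusted p = 0.0476). Bsg (basigin), the chaperone of both transporters, rose from 219 to 266 RPKM (0.28, adjusted p = 0.00582, but 0.15 centred and -0.04 quantile normalized). Slc16a7 (MCT2) was at 0.0763 to 0.211 RPKM and was not tested. Endothelial genes, from cells that also carry MCT1, fell in 7 of 12 cases with none higher. That is 58.3%, against 14.8% of all tested genes, and 9 fell centred. These genes summed to 32.2 to 56.6 RPKM in knock-out muscle and 45.2 to 73.7 in the wild type, with none at 0 in all libraries. Their part in the Slc16a1 values was not tested.

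Of the glycerol 3-phosphate dehydrogenases, Gpd1 and Gpd2 fell and Gpd1l rose. Gpd1, the cytosolic enzyme, and Gpd2, the mitochondrial one, together form a shuttle that carries electrons from glycolytic NADH into the respiratory chain. Gpd2 was at 21.5, 22.8, 22.3, 19.4 and 22.7 RPKM in ko1 to ko5 and at 28.9, 31.9, 34.2 and 31.2 in wt1 to wt4. It fell 1.45-fold without overlap (log2 fold change -0.54, SE 0.07, adjusted p = 3.99e-05), and was at -0.59 to -0.70 in the other scalings. Gpd1 was at 178, 198, 175, 182 and 169 RPKM in ko1 to ko5 and at 185, 218, 233 and 216 in wt1 to wt4. Only ko2 lay above a wild-type library, wt1, and the fall was 1.18-fold (-0.24, SE 0.07, adjusted p = 0.0156, and -0.36 centred), though not past the threshold against wt1 and wt2 alone (-0.16, adjusted p = 0.143). Gpd1l, a cytosolic relative, was at 9.22, 8.75, 9.57, 9.76 and 10.1 RPKM in ko1 to ko5 and at 6.45, 6.74, 6.92 and 6.996 in wt1 to wt4. It rose 1.39-fold without overlap (0.48, SE 0.06, adjusted p = 3.99e-05, and 0.35 centred). The Gpd2 window is chr2:57238132-57238431, plus strand, with 1 match.
Gpd2: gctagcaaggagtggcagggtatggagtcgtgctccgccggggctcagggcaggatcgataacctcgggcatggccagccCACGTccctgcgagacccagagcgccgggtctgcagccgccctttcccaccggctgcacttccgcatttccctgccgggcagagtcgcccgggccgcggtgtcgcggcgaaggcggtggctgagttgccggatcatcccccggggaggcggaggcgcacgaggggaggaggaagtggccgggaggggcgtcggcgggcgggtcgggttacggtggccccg

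Gpd1l was at 4.42% to 5.97% of Gpd1 in knock-out muscle and 2.96% to 3.49% in the wild type, a difference of 0.72 on the log2 scale with no overlap (exact two-sided permutation p = 0.0079, the smallest that 126 splits can give, adjusted p = 0.0381). Gpd2 was at 10.7% to 13.5% and 14.4% to 15.6% of Gpd1, so it fell more than Gpd1 (-0.30, exact two-sided permutation p = 0.0159, adjusted p = 0.0381). Adipocytes are rich in Gpd1, and of 7 adipocyte genes 3 fell and none rose. That is 42.9% lower, against 14.8% of all tested genes, and 5 fell centred. These genes summed to 185 to 294 RPKM in knock-out muscle and 194 to 323 in the wild type, with none at 0 in all libraries. Their part in the fall of Gpd1 was not tested.

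Plain ratios of isoenzymes within a library, such as the percentages given, are not changed by multiplying a library by a factor. The tested log2 ratios carry the pseudocount of 0.1. For genes with values near 0.1 RPKM, such as Eno2, they therefore still depend on the scaling and are not those of the percentages. As deposited, 6 of the 12 ratios compared differed between the genotypes. Quantile normalization and removal of the length trend change the ratios too. The difference for Gpd2 to Gpd1 was -0.14 and -0.20 under these, and that for Pgam1 to Pgam2 was 0.42 and 0.45, none of which was tested. Beside those for Ldhb, Slc16a1, Gpd1l and Gpd2, Pgam1 was at 0.487% to 0.651% of Pgam2 in knock-out muscle and at 0.431% to 0.471% in the wild type (0.34, adjusted p = 0.0381 by the exact permutation test), and Eno2 was at 0.00987% to 0.0158% and 0.00339% to 0.00683% of Eno3 (0.96, adjusted p = 0.0381 by the same test). Eno1 was at 0.211% to 0.291% and 0.186% to 0.214% of Eno3 (0.32, exact permutation p = 0.0397, adjusted p = 0.068), with ko4 inside the wild-type range. The ratios Pfkl to Pfkm, Pfkp to Pfkm, Aldoc to Aldoa, Fbp1 to Fbp2 and Slc16a7 to Slc16a3 overlapped and did not pass (adjusted p from 0.167 to 0.762). With a pseudocount of 1 in place of 0.1, the 6 differences had adjusted p = 0.0544 by the exact permutation test. Macrophage genes, from cells that use the widely expressed isoenzymes, rose in 12 of 14 cases with none lower. That is 85.7%, against 37.0% of all tested genes, and 12 also rose centred. These genes summed to 83.3 to 143 RPKM in knock-out muscle and 35.0 to 46.4 in the wild type, with none at 0 in all libraries. Their part in the values of Eno1, Pgam1, Adpgk and the neuronal Eno2 was not tested.

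**Figure D5:**
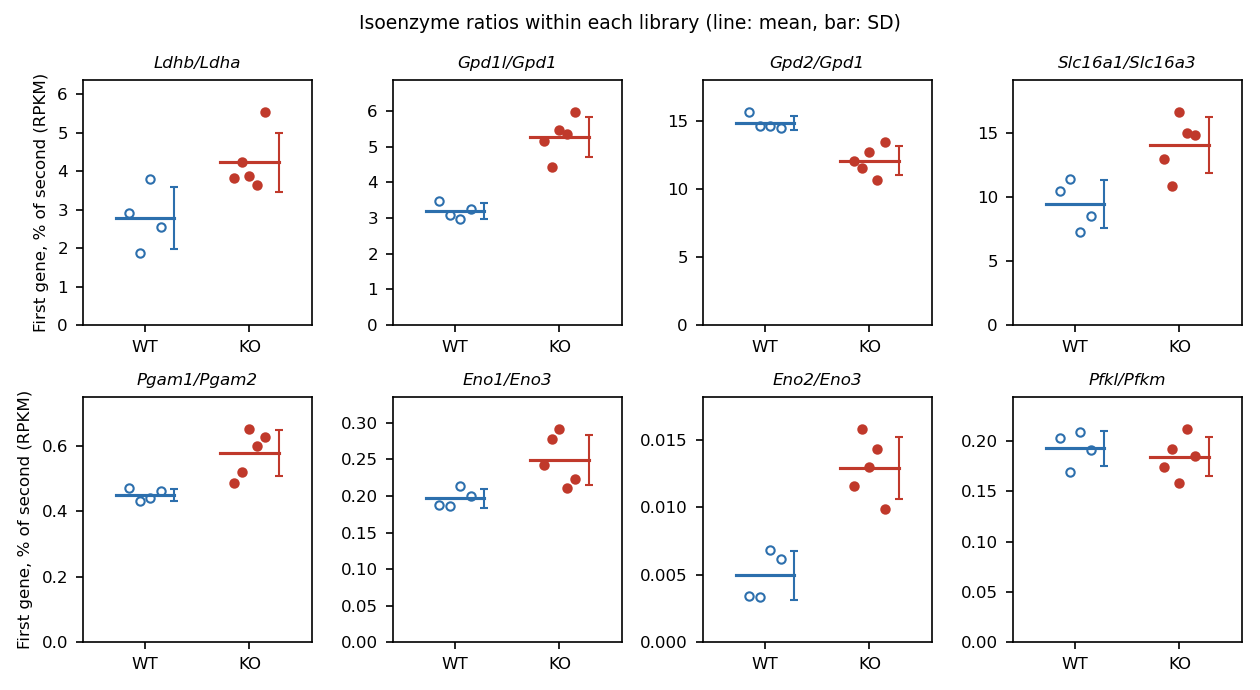
RPKM of the first gene as a percentage of the second in each library, for 8 pairs of isoenzymes or transporters, with the mean as a line and the SD as a bar. The knock-out points for Gpd1l to Gpd1 and Pgam1 to Pgam2 lie above all wild-type points, those for Gpd2 to Gpd1 lie below, and those for Pfkl to Pfkm overlap.

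The Pfkfb genes encode the bifunctional enzymes that make and break fructose 2,6-bisphosphate, the strongest activator of phosphofructokinase, and they did not move together. Pfkfb1, the form of liver and muscle, was at 16.5, 14.8, 13.7, 17.7 and 16.0 RPKM in ko1 to ko5 and at 27.2, 21.7, 25.5 and 24.1 in wt1 to wt4. All knock-out libraries lay below the wild type, a fall of 1.56-fold (log2 fold change -0.64, SE 0.08, adjusted p = 6.83e-05), with -0.77 to -0.87 in the other scalings. The Pfkfb1 window is chrX:150589666-150589965, plus strand, with no match.
Pfkfb1: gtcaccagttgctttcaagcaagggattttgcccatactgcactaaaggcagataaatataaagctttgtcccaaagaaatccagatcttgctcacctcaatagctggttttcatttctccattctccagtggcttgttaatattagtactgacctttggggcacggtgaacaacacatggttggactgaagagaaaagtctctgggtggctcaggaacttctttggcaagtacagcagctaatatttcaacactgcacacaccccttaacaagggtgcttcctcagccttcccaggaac

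Pfkfb3, the inducible form with a high kinase activity, was the most abundant of the family and the most scattered. It was at 37.7, 45.8, 43.6, 68.2 and 32.8 RPKM in ko1 to ko5 and at 61.1, 95.6, 43.4 and 62.3 in wt1 to wt4, with ko4 above all wild-type libraries but wt2. It did not pass as deposited (-0.51, SE 0.23, adjusted p = 0.0793) and passed as lower after centring (-0.64, adjusted p = 0.0417). The value as deposited rested on wt2, without which it was -0.31 (adjusted p = 0.235), while it was -0.79 (adjusted p = 0.0186) against wt1 and wt2 alone and -0.23 (adjusted p = 0.445) against wt3 and wt4 alone. Without ko4 or wt3 it passed as lower (-0.67, adjusted p = 0.0172, and -0.69, adjusted p = 0.0199). Pfkfb4 was at 20.3, 17.6, 18.6, 16.4 and 20.1 RPKM in ko1 to ko5 and at 10.6, 13.0, 16.9 and 16.0 in wt1 to wt4. It rose as deposited (1.33-fold, 0.41, adjusted p = 0.0157) with ko4 under wt3, but did not pass after centring (0.29, adjusted p = 0.0656) or against wt3 and wt4 alone (adjusted p = 0.156). Pfkfb2, the heart form, was at 3.11 to 3.97 and 3.17 to 3.53 RPKM (0.11, 95% interval -0.07 to 0.29, adjusted p = 0.282).

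Fructose 1,6-bisphosphatase runs the opposite reaction to phosphofructokinase. The muscle form Fbp2 was at 20.8, 23.9, 19.6, 22.6 and 18.4 RPKM in ko1 to ko5 and at 19.6, 18.9, 21.9 and 15.1 in wt1 to wt4. The groups overlapped (0.16, 95% interval -0.07 to 0.40, adjusted p = 0.217). The liver form Fbp1 was at 0.0184 to 0.136 RPKM, an estimated 1.03 to 7.18 reads, and was not tested. Isoenzymes of liver and testis lay near the floor as well: Pklr, Gapdhs and Ldhal6b were at no more than 0.281 RPKM in any library. Slc16a8, a lactate transporter of the eye, was under the limit for testing by its mean, at 0.758, 0.604, 0.692, 0.488 and 0.637 RPKM in ko1 to ko5 and at 0.419, 0.354, 0.242 and 0.281 in wt1 to wt4. All its knock-out values were higher, and a fit without the limit gave a log2 fold change of 0.80 (SE 0.16, adjusted p = 0.00393).

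Genes on either side of the pathway were taken from lists by function. Of 13 tested genes for glucose supply, 2 rose and 3 fell as deposited (15.4% and 23.1%, against 37.0% and 14.8% of all genes). After centring 2 rose and 6 fell (15.4% and 46.2%, against 25.1% and 24.9%). The median was -0.04 as deposited, against 0.12 for all genes. Slc2a1, the GLUT1 transporter, rose from 1.73 to 5.67 RPKM (1.68, adjusted p = 1.77e-06) and the hexokinase Hk1 from 1.21 to 3.998 (1.65, adjusted p = 2.33e-06). The GLUT3 transporter gene Slc2a3 fell from 4.10 to 1.85 RPKM (-1.09, adjusted p = 7.67e-06), Pygm, the muscle glycogen phosphorylase, from 2772 to 2137 (-0.38, adjusted p = 6.65e-04) and the phosphoglucomutase gene Pgm2 from 491 to 432 (-0.19, adjusted p = 0.00642).

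Of 16 genes for the use of pyruvate, 2 rose and 8 fell as deposited (12.5% and 50%, against 37.0% and 14.8% of all genes). After centring 2 rose and 10 fell (12.5% and 62.5%, against 25.1% and 24.9%). The median was -0.16 as deposited, against 0.12 for all genes. Gpt2, the mitochondrial alanine aminotransferase, fell from 64.3 to 35.2 RPKM (-0.86, adjusted p = 6.84e-06), and the cytosolic Gpt rose from 7.33 to 11.3 (0.62, adjusted p = 1.69e-04). Pdk3, a kinase that inhibits pyruvate dehydrogenase, rose from 0.242 to 0.725 RPKM (1.27, adjusted p = 6.68e-05), while Pdk4, its major form in fasted muscle, was at 104 to 214 RPKM in the wild type and 118 to 236 in the knock-out (adjusted p = 0.332). Pcx, the pyruvate carboxylase, fell from 20.6 to 15.1 RPKM (-0.45, adjusted p = 5.88e-04) and Pdhx, a component of pyruvate dehydrogenase, from 25.3 to 20.4 (-0.30, adjusted p = 0.00173).

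Of 7 tested genes of the other NADH shuttle, malate-aspartate, and related carriers, 3 rose and none fell (42.9% higher, against 37.0% of all genes). The counts were 2 and 1 centred (28.6% and 14.3%, against 25.1% and 24.9%). They were 1 and 3 with quantile normalization (14.3% and 42.9%, against 24.0% and 27.7%). Got1, the cytosolic aspartate aminotransferase, rose from 79.0 to 114 RPKM (0.54, adjusted p = 4.58e-04). Slc25a11, the malate carrier, rose from 89.5 to 116 (0.37, adjusted p = 4.73e-04, but 0.14 quantile normalized, adjusted p = 0.0595). Mdh1 rose from 185 to 226 (0.29, adjusted p = 0.00257, but -0.01 quantile normalized).

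Of 16 regulators and partners, 6 rose and 1 fell (37.5% and 6.2%, against 37.0% and 14.8% of all genes), with a median of -0.02. After centring 4 rose and 7 fell (25% and 43.8%, against 25.1% and 24.9%), so the share that rose was near that of all genes in both scalings. Hif1a, the subunit of the hypoxia-inducible factor, was at 3.33 to 3.77 RPKM in knock-out muscle and 3.45 to 4.35 in the wild type (-0.10, adjusted p = 0.319), and passed as lower after centring (-0.23, adjusted p = 0.0217). Egln3, a prolyl hydroxylase that marks this factor for breakdown and is itself one of its targets, rose from 5.62 to 21.2 RPKM (1.90, adjusted p = 3.95e-08). Vhl, which then binds the factor, rose from 1.94 to 2.75 (0.51, adjusted p = 0.0141) and Ppp1r3c, a glycogen-targeting subunit, from 138 to 227 (0.69, adjusted p = 0.00234). Bpgm, which makes 2,3-bisphosphoglycerate in red cells, fell from 42.6 to 33.9 RPKM (-0.32, adjusted p = 2.92e-04). Red blood cell genes fell in 5 of 5 tested cases, against 14.8% of all tested genes, and 5 also fell centred. These genes summed to 138 to 225 RPKM in knock-out muscle and 266 to 291 in the wild type, with none at 0 in all libraries. Their part in the fall of Bpgm was not tested.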

How the data were processed

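RNA from white gastrocnemius was extracted with Trizol and made into libraries with the Illumina TruSeq kit, per the labels' protocols. The authors deposited 1 table of RPKM values, with RefSeq transcripts in its lines and the libraries in its columns. Per the submitters' processing notes, the genome was mm9 and the tools TopHat 1.3.2, Bowtie 0.12.7.0 and Partek 6.6. Their roles, and any use of strand or of reads with several matches, were not stated.

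RPKM was summed per symbol over 23665 lines, after 36 of 37 symbols read as dates by a spreadsheet were restored by accession. RPKM is not a count, so log2(RPKM + 0.1) of genes with a mean of at least 0.5 was fitted with limma 3.58.1 in R 4.3.3 (two-sided, eBayes with a trend on mean level). P-values were adjusted over all genes by Benjamini-Hochberg with a threshold of 0.05. Folds of low genes are understated on this scale. Isoenzyme ratios had exact permutation tests over all 126 label assignments, on log2 ratios with the same pseudocount. Reads were estimated from the steps of low values, of which 70.8% to 74.3% lay within 0.1 of a whole number of reads (chance gives 20%), with GENCODE transcript lengths. This covers counting error only. The chi-square per gene between replicates was 3.07 to 15.5, above counting error, so no column repeats another within that error; this does not show that they are separate mice. The fit was tested on simulated data. The tables were made with Python 3.11.15.

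The members and lists were chosen with earlier results of these data known. All 31 members are named. Of the other lists, the genes past the threshold with the largest changes are named, at most 3 in each direction, with Bsg, Hif1a, Pdk4 and Bpgm, whose roles are stated beside members. Mb, Myh2 and the isoenzymes near the floor were named after their values were seen. Promoter windows are from RefSeq on GRCm38, used within 100 bases of a GENCODE start. Transcript lines on their own, the slow-twitch sum without Mb, ratios under other scalings and the unfiltered Slc16a8 value were added after the data were seen.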

Additional observations from a re-analysis of the deposited data

Results flagged for a closer look

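In 62 groups of values (31 genes in 2 genotypes), the highest or lowest library was tested for standing apart from the rest of its group, which chance alone flags in about 1 group in 20, and 2 were flagged. Pfkm in ko2, at 1342.8 RPKM, stood above the other knock-out libraries (1177.7 to 1194.8). Pkm2 in wt3, at 1191.6 RPKM, stood above the other wild-type libraries (1098.3 to 1110.4).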

How the results depend on the processing

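The counts of 15 members higher and 3 lower turned on the scaling: they were 8 and 7 with centring, 7 and 8 with quantile normalization, and 8 and 8 with the length trend removed. With the highest transcript line per symbol in place of the sum, 6 were lower. Leaving out 1 library at a time gave 12 to 15 higher and 3 to 4 lower. All other settings, wt1 and wt2 alone or wt3 and wt4 alone included, gave counts within 1.5 times of those reported. Outside the 4 scalings the shares of all genes are not given, so those counts cannot be set against them. Of 539 refits of single members, 4 turned the direction of a call: with the length trend removed Aldoa was at -0.0209, Tpi1 at -0.0035 and Eno3 at -0.0236, and with quantile normalization Ldha was at -0.04. The Pfkm line NM_001163488 alone was at 0.21. The cause was not tested.

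With a pseudocount of 1 the ratio differences were 0.31 for Pgam1 to Pgam2, 0.14 for Eno2 to Eno3, 0.61 for Ldhb to Ldha, 0.67 for Gpd1l to Gpd1, -0.28 for Gpd2 to Gpd1 and 0.54 for Slc16a1 to Slc16a3, all with adjusted p = 0.0544 by the exact permutation test. Without 1 library at a time, they ran from 0.30 to 0.40, 0.86 to 1.06, 0.45 to 0.79, 0.67 to 0.78, -0.34 to -0.25 and 0.46 to 0.68 in that order. With 8 libraries the smallest exact p is 0.0286 or 0.0179, and no adjusted p was below 0.0571. The share of RPKM held by the members was 0.10 percentage points higher in the knock-out, and 0.07 lower (-0.07) without the 20 most abundant other genes. No paired analysis was possible because the wild-type columns cannot be matched to the numbers in the labels, which repeat at each age.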
